A study of Mus musculus with 12 samples.

Results

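The adrenergic receptors were represented on each array by 13 probes of 8 genes, out of 41174 non-control probes with 27827 gene names. The members were all non-control probes whose gene name in the scanner files was Adra1a, Adra1b, Adra1d, Adra2a, Adra2b, Adra2c, Adrb1 or Adrb3. Of these, 12 probes of 7 genes passed the filter on low values and were tested among 31622 probes, and the Adrb3 probe did not pass. Hypothalamic RNA of male ICR mice, an outbred strain, was hybridized to 12 Agilent 1-color arrays of 60-base probes. Mice were 3 weeks old at the start, spent 5 days with water alone in both drinking tubes, and then either stayed on water or had a free choice between water and an alcohol solution of 5% or 10% until the end, which is day 51 in the sample labels and day 57 in the series design. The labels name 3 arrays of the water group, each with RNA pooled from 3 mice, and 3 arrays each of low alcohol drinkers, early high alcohol drinkers and late high alcohol drinkers, each with RNA of 1 to 3 mice. The labels do not give the alcohol strength behind an array. The study's pooling list, under pool names that the labels do not carry, gives most alcohol pools as mice of a single strength, and strengths were not compared here. The tissue took in much of the hypothalamus and was not divided into nuclei.

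Adrenergic receptors are G protein-coupled receptors of the cell surface that bind noradrenaline and adrenaline. The alpha-1 receptors (Adra1a, Adra1b, Adra1d) act mainly through Gq and phospholipase C, the alpha-2 receptors (Adra2a, Adra2b, Adra2c) act through Gi and lower cyclic AMP, and the beta receptors (Adrb1, Adrb3) act through Gs and raise cyclic AMP. Noradrenaline reaches the hypothalamus along fibers of brainstem neurons, where alpha-2 receptors on the fibers themselves limit its release, and in the hypothalamus it takes part in feeding, arousal, stress responses and the control of sympathetic outflow to heart and vessels.

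The level of a probe is given as its log2 intensity minus the 75th percentile of its array, so that 0 is the 75th percentile, and levels of different probes were not set against each other, since brightness also depends on the probe. Array brightness at that percentile was 1512 to 1853, spots well above background made up 67.0% to 79.3% of an array, and none was saturated. Slide 1 held the 3 water arrays and low drinker array 1, slide 2 held low drinker arrays 2 and 3 with early high drinker arrays 1 and 2, and slide 3 held early high drinker array 3 with the 3 late high drinker arrays. No water array was on slide 2 or 3, and slide 1 was scanned on a later day. Low drinker array 2 stood apart in its dim spots, with a lower quartile of the signal of 63.2 against 22.3 to 34 on the other arrays. Of 11 hypothalamus markers, 10 were well above background on all 12 arrays. Of 4 markers of noradrenergic cell bodies none was, and Slc6a2, the noradrenaline transporter that marks such neurons, was well above background on no array. The summed level of these 4 genes lay between -4.53 and -4.0 in water, between -5.05 and -4.50 in late high drinkers, and was -2.50 on low drinker array 2, which was the highest array for all 4 genes. The other low and early high drinker arrays lay between -4.48 and -3.99. On low drinker array 2, Phox2a and Slc6a2 were not well above background, so its rank for them is no measure of these transcripts.

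Of the 13 receptor probes, 10 were well above background on all 12 arrays. Adra2b and the Adra1a probe at base 3983 were well above background on 10 arrays each, and Adrb3 on none. Across all 9 alcohol arrays against the 3 water arrays, no receptor differed beyond the spread between arrays, with 6 probes lower, 6 higher and a median log2 difference of -0.01 beside 0.03 over all tested probes. The clearest separations lay in single drinking groups. In late high drinkers Adra1d and the 5′ Adrb1 probe, 2 of 12 probes, were lower than in water at an unadjusted p under 0.05, which 15.9% of all tested probes passed in that comparison. Late high and water arrays shared no slide or scan day, so slide and drinking group cannot be told apart there. In low drinkers Adra2c, 1 of 12 probes, was lower at that threshold, which 9.08% of all tested probes passed. The share for low drinkers itself moved to 19.9% without low drinker array 1 and to 3.68% without low drinker array 2. None of the 3 probes passed limma's adjusted p of 0.05 over all tested probes.

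**Figure D1:**
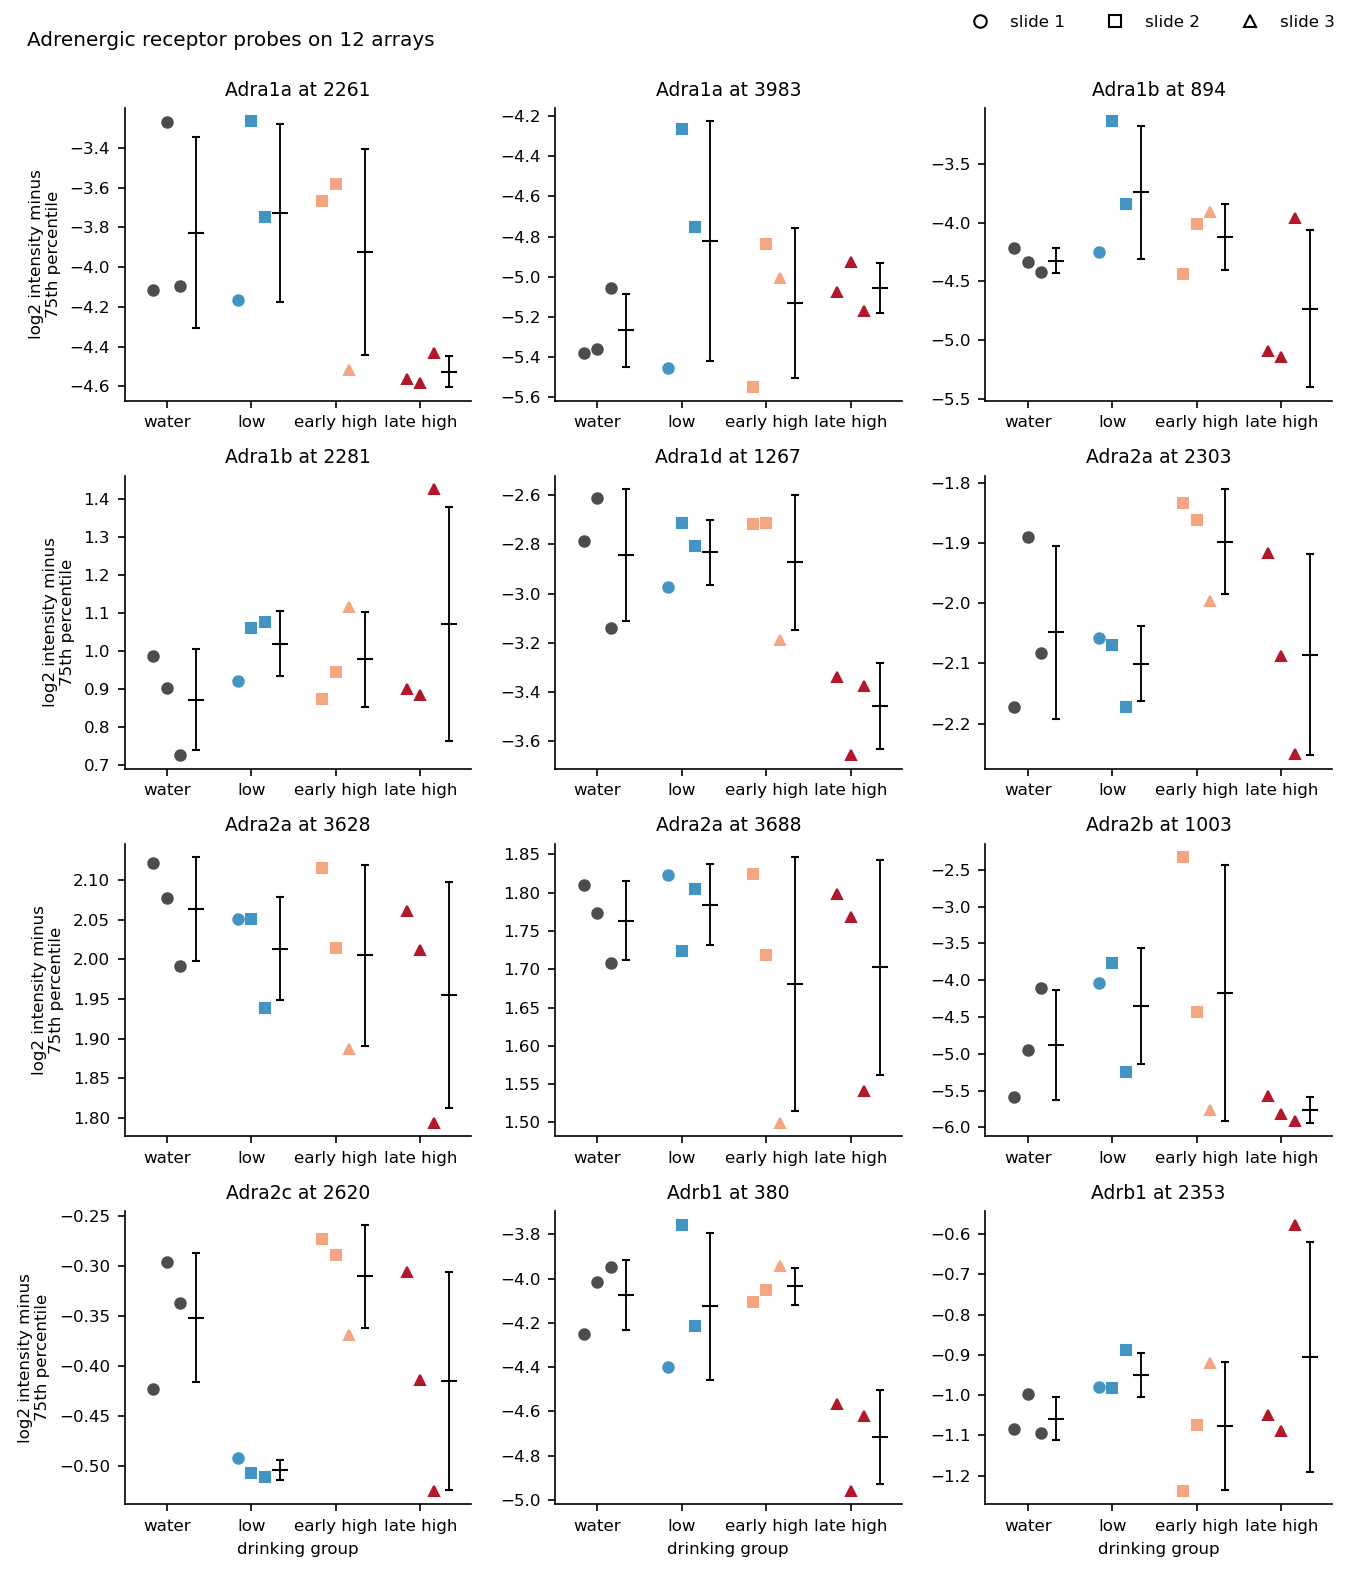
Level of the 12 tested receptor probes (log2 intensity minus the array's 75th percentile, vertical axes, each on its own scale) in water, low, early high and late high drinkers. Points are arrays, with the slide as the marker shape, and the bar beside them is the mean ± SD of 3 arrays. The late high arrays of Adra1d (-3.66 to -3.34) and of Adrb1 at base 380 (-4.96 to -4.57) lay below all water arrays, and the low arrays of Adra2c (-0.51 to -0.49) lay below all water arrays. Late high and water arrays shared no slide or scan day.

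Adrb1 encodes the beta-1 receptor, the main beta receptor of heart muscle, which is also present on neurons. Its 2 probes lie on chromosome 19 (mm9, plus strand), at chr19:56797242-56797301 for the probe that starts at base 380 of the transcript and at chr19:56799215-56799274 for the one at base 2353, both as the array files give them. They are shown because they disagreed, the first in full and the second by its first 30 bases.
Adrb1 at base 380: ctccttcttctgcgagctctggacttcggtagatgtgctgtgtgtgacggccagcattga
Adrb1 at base 2353: gttggaaggccattttgcacagtgttaggc

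On the probe at base 380, Adrb1 levels on the water arrays were -4.25, -4.02 and -3.95. The low drinkers had levels of -4.40, -3.76 and -4.21, and the early high drinkers of -4.11, -4.05 and -3.94. In the late high drinkers the levels were -4.57, -4.96 and -4.62. All 3 late high arrays thus lay below the other 9 arrays, whereas water, low and early high arrays overlapped. The log2 difference of late high drinkers from water was -0.64 (standard error 0.17, 95% interval -1.01 to -0.27), a level 0.641 times that of water, with an unadjusted p of 0.00323 and an adjusted p of 0.136 by limma. Against early high drinkers it was -0.68 (standard error 0.17, adjusted p = 0.314 by limma). The exact permutation test gave p = 0.1 for each, 2-sided, the smallest value that 3 arrays against 3 allow. On slide 3 alone, the late high arrays averaged -4.71 and the 1 early high array was at -3.94, a log2 difference of -0.77. With the slide as a fixed block the difference from water was -1.19 (adjusted p = 0.519 by limma), an estimate that joins the slides through single arrays, low drinker array 1 on slide 1 and early high drinker array 3 on slide 3. After normexp background correction the difference was -0.40 (adjusted p = 0.173).

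The probe at base 2353 gave another picture. Its levels were -1.08, -1.0 and -1.09 on the water arrays, -0.98, -0.98 and -0.89 in low drinkers, -1.24, -1.07 and -0.92 in early high drinkers, and -1.05, -1.09 and -0.58 in late high drinkers. Here the late high arrays overlapped the water arrays, and array 3 of the late high drinkers was the highest of all 12. The log2 difference of late high drinkers from water was 0.15 (standard error 0.13, 95% interval -0.14 to 0.45, adjusted p = 0.616 by limma). Low drinkers were above all water arrays on this probe, by a log2 difference of 0.11 (standard error 0.13, adjusted p = 0.888 by limma). Over the 12 arrays, which share 3 slides, the 2 Adrb1 probes had a Pearson r of -0.196, and of 0.078 after the mean of each slide was subtracted. The positive sign of the late high difference at base 2353 rests on array 3, since arrays 1 and 2 lay within the range of the water arrays, and the difference between the 2 probes was not tested.

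Adra1d, an alpha-1 receptor known from blood vessels and brain, was measured by 1 probe at base 1267 of its transcript, on the minus strand of chromosome 2 (mm9, chr2:131372160-131372219). It is shown because it held, with Adrb1, the lowest unadjusted p values of the receptors.
Adra1d at base 1267: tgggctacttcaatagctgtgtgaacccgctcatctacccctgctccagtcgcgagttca

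Adra1d levels were -2.79, -2.61 and -3.14 on the water arrays, -2.97, -2.71 and -2.81 in low drinkers, -2.72, -2.71 and -3.19 in early high drinkers, and -3.34, -3.66 and -3.37 in late high drinkers. The 3 late high arrays were the lowest of the 12, and the next lowest was the early high array on the same slide. Late high drinkers differed from water by a log2 difference of -0.61 (standard error 0.17, 95% interval -0.99 to -0.23), a level 0.654 times that of water, with an unadjusted p of 0.00485 and an adjusted p of 0.148 by limma. The log2 difference from early high drinkers was -0.58 (standard error 0.17, adjusted p = 0.314 by limma). Within slide 3 the late high arrays averaged -3.46 and the early high array was at -3.19, a log2 difference of -0.27. With the slide as a fixed block, joined through the same single arrays, the difference from water was -0.35 (adjusted p = 0.811 by limma). The value within slide 3 rests on 1 early high array for both genes and has no replicate check on that side.

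Adra1a encodes an alpha-1 receptor of smooth muscle and brain, and was measured by 2 probes on the plus strand of chromosome 14 (mm9), at chr14:67346728-67346787 and chr14:67352013-67352072. On the probe at base 2261 the levels were -4.11, -3.27 and -4.10 in water, -4.16, -3.27 and -3.75 in low drinkers, -3.67, -3.58 and -4.52 in early high drinkers, and -4.56, -4.58 and -4.43 in late high drinkers. The late high arrays again lay below all water arrays, with a log2 difference of -0.70 (standard error 0.31, unadjusted p = 0.0513, adjusted p = 0.318 by limma). The size of this difference rests in part on water array 2, at -3.27, since the water mean was -3.83 and the water median -4.10. On slide 3 the early high array, at -4.52, lay among the late high ones, whose mean was -4.53. The other probe, at base 3983, ranged from -5.55 to -4.26 over the 12 arrays, with its highest value on low drinker array 2, and its late high arrays overlapped the water arrays. The r of the 2 Adra1a probes over 12 arrays was 0.222.

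Adra1b, the alpha-1 receptor coupled to Gq that is abundant in thalamus and cortex, was measured by 2 probes on the minus strand of chromosome 11 (mm9), at chr11:43648881-43648940 for the probe at base 894 and at chr11:43588814-43588873 for the one at base 2281. They are shown, the second by its first 30 bases, because the first had its highest value on the array with the brightest dim spots and the second held the value farthest from the rest.
Adra1b at base 894: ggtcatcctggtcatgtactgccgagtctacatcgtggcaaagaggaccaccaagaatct
Adra1b at base 2281: caatgctggccctttgatagggtcggaaaa

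At base 894 the levels were -4.22, -4.33 and -4.42 in water, -4.25, -3.14 and -3.84 in low drinkers, -4.44, -4.01 and -3.91 in early high drinkers, and -5.09, -5.15 and -3.96 in late high drinkers. The highest value belonged to low drinker array 2 and the lowest 2 to late high drinkers, with overlap between all groups. High drinkers, early and late together, differed from low drinkers by -0.68 (log2 difference, standard error 0.30, unadjusted p = 0.0458, adjusted p = 0.333 by limma). Without low drinker array 2 this difference was -0.38. The probe at base 2281 had levels of 0.99, 0.90 and 0.73 in water, 0.92, 1.06 and 1.08 in low drinkers, 0.87, 0.95 and 1.12 in early high drinkers, and 0.90, 0.89 and 1.43 in late high drinkers. All groups overlapped, and 9 of 9 alcohol arrays lay above the water mean of 0.87, although early high array 1 was at the same value to 2 decimals. The log2 difference of alcohol from water was 0.15 (standard error 0.11, adjusted p = 0.821 by limma, exact permutation p = 0.218, 2-sided), and 0.08 without water array 3, the lowest of the 12. Late high drinker array 3 stood well above the others, while arrays 1 and 2 of that group lay within the water range.

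Adra2a encodes the main alpha-2 receptor of noradrenergic neurons, where it acts as an autoreceptor. It was measured by 3 probes on the plus strand of chromosome 19 (mm9). The probe at base 3628 (chr19:54123300-54123359) and that at base 3688 (chr19:54123360-54123419) follow each other with a gap of 0 bases, so they read neighboring stretches of 1 transcript and serve as a check of each other. Their first 30 bases are shown for that reason.
Adra2a at base 3628: ggagacttcgtgtttacaacctggtttcta
Adra2a at base 3688: gatctgatttcacgagagaaaaactaaatg

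These neighboring Adra2a probes had an r of 0.819 over the 12 arrays (0.743 after slide means were subtracted). At base 3628 the Adra2a levels were 2.12, 2.08 and 1.99 in water, 2.05, 2.05 and 1.94 in low drinkers, 2.11, 2.01 and 1.89 in early high drinkers, and 2.06, 2.01 and 1.79 in late high drinkers. The groups overlapped, and array 3 was the lowest of each alcohol group. The log2 difference of alcohol from water was -0.07 (standard error 0.07, 95% interval -0.22 to 0.07, adjusted p = 0.844 by limma), the narrowest interval among the receptors, and it was -0.04 without water array 1 and -0.11 without water array 3. At base 3688 it was -0.04 (95% interval -0.21 to 0.12), with -0.02 without water array 1, -0.07 without water array 3 and -0.01 without early high array 3, and at base 2303, the third probe, it was 0.02 (95% interval -0.18 to 0.22). The intervals of the 3 probes thus ran from -0.22 to 0.22. Within slide 1, the only slide with water arrays, the 1 low drinker array differed from the water mean by -0.01 at base 2303 and by 0.06 at base 3688.

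Adra2c encodes a slower-acting alpha-2 receptor that, in brain, is best known from striatum and also restrains noradrenaline release. It was measured by 1 probe at base 2620, on the plus strand of chromosome 5 (mm9, chr5:35623835-35623894), shown because low drinkers stood apart on it.
Adra2c at base 2620: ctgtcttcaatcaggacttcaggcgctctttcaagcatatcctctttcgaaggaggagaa

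Adra2c levels were -0.42, -0.30 and -0.34 in water, -0.49, -0.51 and -0.51 in low drinkers, -0.27, -0.29 and -0.37 in early high drinkers, and -0.31, -0.41 and -0.52 in late high drinkers. The 3 low drinker arrays lay below all water and all early high arrays, and late high array 3, at -0.52, lay beside them. The log2 difference of low drinkers from water was -0.15 (standard error 0.07, 95% interval -0.30 to -0.01), with an unadjusted p of 0.0437 and an adjusted p of 0.547 by limma. Within slide 1 the 1 low array differed from the water mean by -0.14, and within slide 2 the 2 early high arrays lay 0.23 above the 2 low arrays. High drinkers lay above low drinkers by a log2 difference of 0.14 (standard error 0.06, unadjusted p = 0.0330, adjusted p = 0.305 by limma). Without scaling between arrays, these differences were -0.23 for low drinkers against water (adjusted p = 0.577) and 0.27 for high against low drinkers (adjusted p = 0.230).

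Adra2b, an alpha-2 receptor best known from vessels and a few brain nuclei, had the widest spread of the receptors, from -5.91 to -2.33 with an SD of 1.09 over 12 arrays. The highest level, -2.33, came from early high drinker array 1, and the other 2 early high arrays were at -4.43 and -5.77. The water arrays were at -5.59, -4.95 and -4.11, the low drinker arrays at -4.04, -3.77 and -5.25, and the late high arrays lay between -5.91 and -5.57. Water, low and early high arrays overlapped, and the late high arrays overlapped the lowest water array. The log2 difference of alcohol from water was 0.12 with a 95% interval of -1.42 to 1.66, so these arrays did not bound a change of Adra2b closely. Adrb3, the beta-3 receptor of fat tissue, had a ratio of signal to its error of 1.0 to 1.88, and no level or fold is given for it. Its 60 bases span 420 bases of the genome on the minus strand of chromosome 8 (mm9, chr8:28337317-28337736). Of 5 fat tissue markers, 1 was well above background on all 12 arrays.

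**Figure D2:**
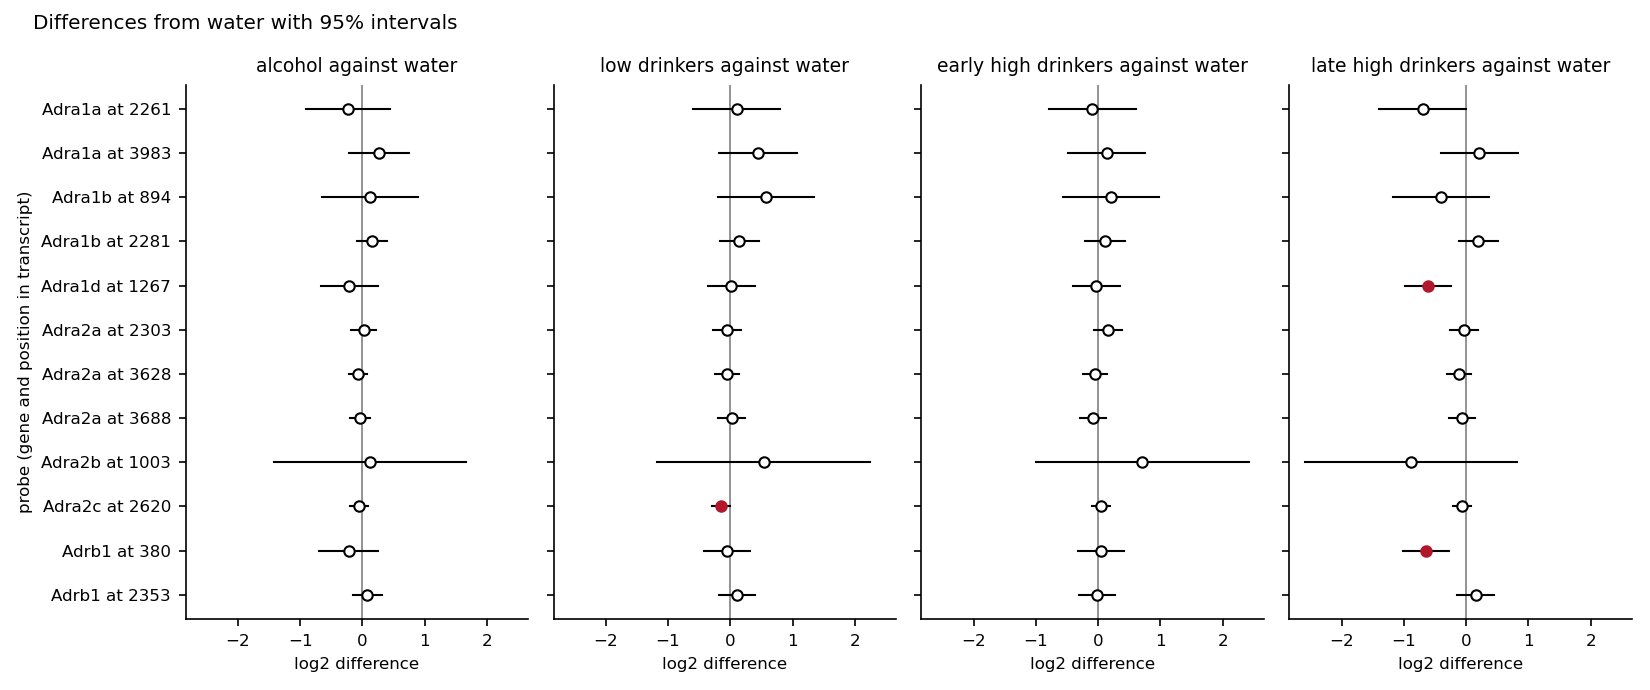
Log2 difference from water (horizontal axes) of the 12 tested receptor probes (vertical axis, gene and first base in the transcript) for all alcohol arrays and for low, early high and late high drinkers. Points are limma estimates, lines are 95% intervals, and filled points have an unadjusted p under 0.05. Filled points stand for Adra2c in low drinkers (-0.15) and for Adra1d (-0.61) and Adrb1 at base 380 (-0.64) in late high drinkers. Late high and water arrays shared no slide or scan day.

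The receptor probes were read against all 31622 tested probes. For alcohol against water, 0 of 12 receptor probes had an adjusted p under 0.05 by limma, where 0% of all probes did, and 0 of 12 had an unadjusted p under 0.05, where 5.59% of all probes did. Exact permutation p values over the 220 splits lay between 0.218 and 0.909 for the 12 probes. For low drinkers against water, 0 receptor probes passed the adjusted p beside 0.218% of all probes, and 1 of 12 passed the unadjusted p beside 9.08%. The one that passed, Adra2c, was also the one with all low arrays below all water arrays, which held for 2.14% of all probes. Adrb1 at base 2353 was the one with all low arrays above all water arrays, which held for 7.05% of all probes.

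Early high drinkers differed from water on 0 of 12 receptor probes at the adjusted p (0% of all probes) and on 0 at the unadjusted p (4.7%). For late high drinkers against water, 0 receptor probes passed the adjusted p (0% of all probes), while 2 of 12, Adra1d and Adrb1 at base 380, passed the unadjusted p (15.9% of all probes). All late high arrays lay below all water arrays on 3 of 12 receptor probes, Adra1a at base 2261 being the third, beside 13.4% of all probes. Of the 12 probes 9 were lower and 3 higher in late high drinkers, with a median log2 difference of -0.09 beside 0.00 over all probes. The share of receptor probes at the unadjusted p was near that of the whole array.

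High drinkers were compared with low drinkers, and 0 of 12 receptor probes passed the adjusted p (0.0221% of all probes). Adra2c, higher in high drinkers, and Adra1b at base 894 and Adra1d, lower in high drinkers, passed the unadjusted p (14.7% of all probes). The Adra1d difference was -0.33, and -0.09 with the slide as a fixed block. Between late and early high drinkers, 0 receptor probes passed the adjusted p (0% of all probes) and 2 of 12 the unadjusted p (12.4%). These were Adra1d and Adrb1 at base 380, also the 2 with all late high arrays below all early high arrays, beside 13.2% of all probes. The share of 12.4% itself fell to 7.51% without early high array 1 and to 4.79% with the slide as a fixed block. The comparisons with water share the 3 water arrays and are not independent of each other.

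**Figure D3:**
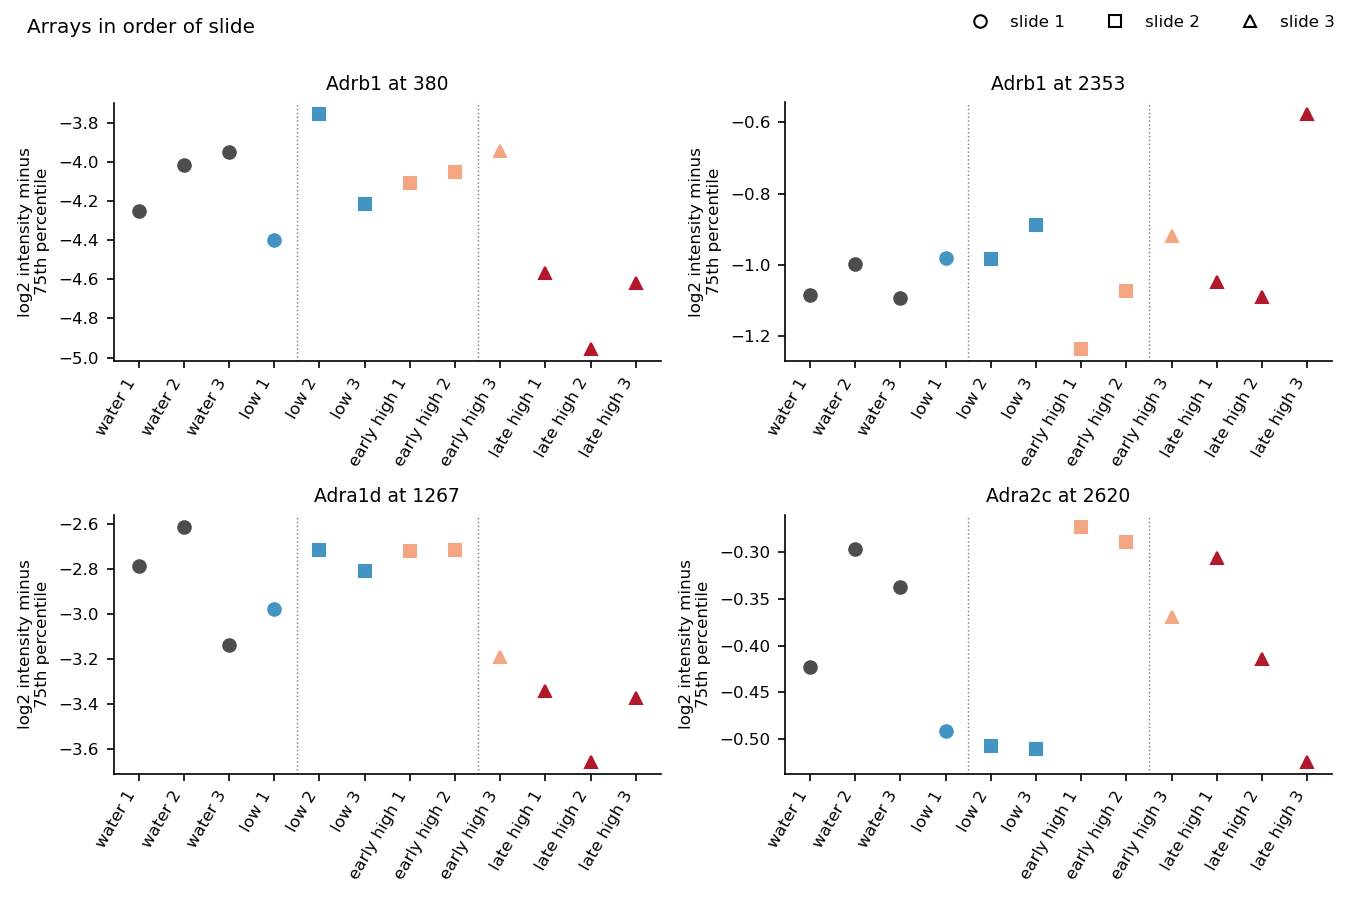
Level of 4 receptor probes (log2 intensity minus the array's 75th percentile, vertical axes) on the 12 arrays in order of slide, with dotted lines between slides, colors for drinking groups and marker shapes for slides. On slide 3 the early high array lay 0.77 above the late high mean for Adrb1 at base 380 and 0.27 above it for Adra1d, and on slide 2 the early high arrays of Adra2c lay 0.23 above the low arrays.

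The summed levels of several tissue marker lists differed between late high drinkers and water, and in tissue RNA fewer cells of a type and less RNA per cell cannot be told apart. The summed level of 4 blood markers, all well above background on all arrays, lay between 6.22 and 6.67 in late high drinkers and between 6.91 and 7.21 in water. That of 5 striatum markers, likewise all well above background, lay between 1.81 and 1.94 against 2.04 and 2.16. Choroid plexus markers (4 of 5 well above background on all arrays) lay between 1.15 and 1.32 against 1.33 and 1.73, and 5 white matter markers, all well above background, between 7.37 and 7.63 against 7.18 and 7.36. By summed level, blood, striatum and choroid plexus were thus lower, and white matter higher, in late high drinkers than in water without overlap. By the mean deviation of the markers, choroid plexus and white matter overlapped between these groups, while blood and striatum did not. The early high array on slide 3 lay inside the late high ranges for striatum (1.84), choroid plexus (1.24) and white matter (7.52), and outside that for blood (7.04). All 3 early high arrays were above water for white matter, and low drinker array 1 had a blood level of 6.59, inside the late high range. Their part in the lower Adra1d and Adrb1 levels was not tested. The 5 vascular smooth muscle markers, all well above background, lay between 2.88 and 2.99 in late high drinkers and between 2.85 and 2.93 in water.

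Levels of the tested receptor probes were also set against the 11 marker lists and the lower quartile of each array's signal, in 144 relations over the 12 arrays, chosen after seeing the data. The permutations shuffled all 12 arrays without regard to slide or drinking group. Their p values thus take the arrays as exchangeable, which this layout does not ensure. Adra1b at base 2281 had a Pearson r of 0.819 with the mean deviation of 9 thalamus markers (permutation p = 0.00063 over 100000 resamples, adjusted p = 0.0253) and a Spearman rho of 0.755 (permutation p = 0.00606, adjusted p = 0.184). Adrb1 at base 2353 had an r of 0.820 with the same markers (permutation p = 0.00054, adjusted p = 0.0253) and a rho of 0.720 (permutation p = 0.00953, adjusted p = 0.197). Without low drinker array 3 and late high drinker array 3, the arrays farthest from the median of these markers, the r values fell to 0.632 and 0.613. After slide means were subtracted they were 0.775 and 0.797. Both relations thus kept their direction but were weaker without those 2 arrays, and neither passed the adjusted p by ranks.

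Late high drinker array 3 had the highest levels of both these receptor probes and a summed thalamus marker level of 6.15, against 5.65 to 5.77 in water, with all 9 markers well above background on all arrays. Low drinker arrays 2 (5.84) and 3 (5.93) and early high array 3 (5.92) were also above all water arrays. The marker Prkcd, a protein kinase C of thalamic relay neurons, was at 2.13 on late high array 3 and between -0.38 and 0.10 in water. It was also high on low drinker array 3 (1.48) and early high array 3 (1.20). Of the 9 markers 7 were highest on late high array 3, while Calb2, at 2.35, lay within the water range of 2.22 to 2.41. The 3 Adra2a probes and Adra2c went the other way, with r values of -0.655, -0.723, -0.615 and -0.627 with the thalamus markers (adjusted permutation p = 0.208, 0.0960, 0.242 and 0.238). None of these alpha-2 relations passed the adjusted p. The other Adra1b probe, at base 894, had an r of 0.463 with the thalamus markers, the same sign as that at base 2281. The probes of Adrb1 and Adra1a did not go together, since Adrb1 at base 380 had an r of -0.017, and the Adra1a probes had r values of -0.177 at base 2261 and 0.403 at base 3983. The part of the thalamus markers in the group values was not tested.

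**Figure D4:**
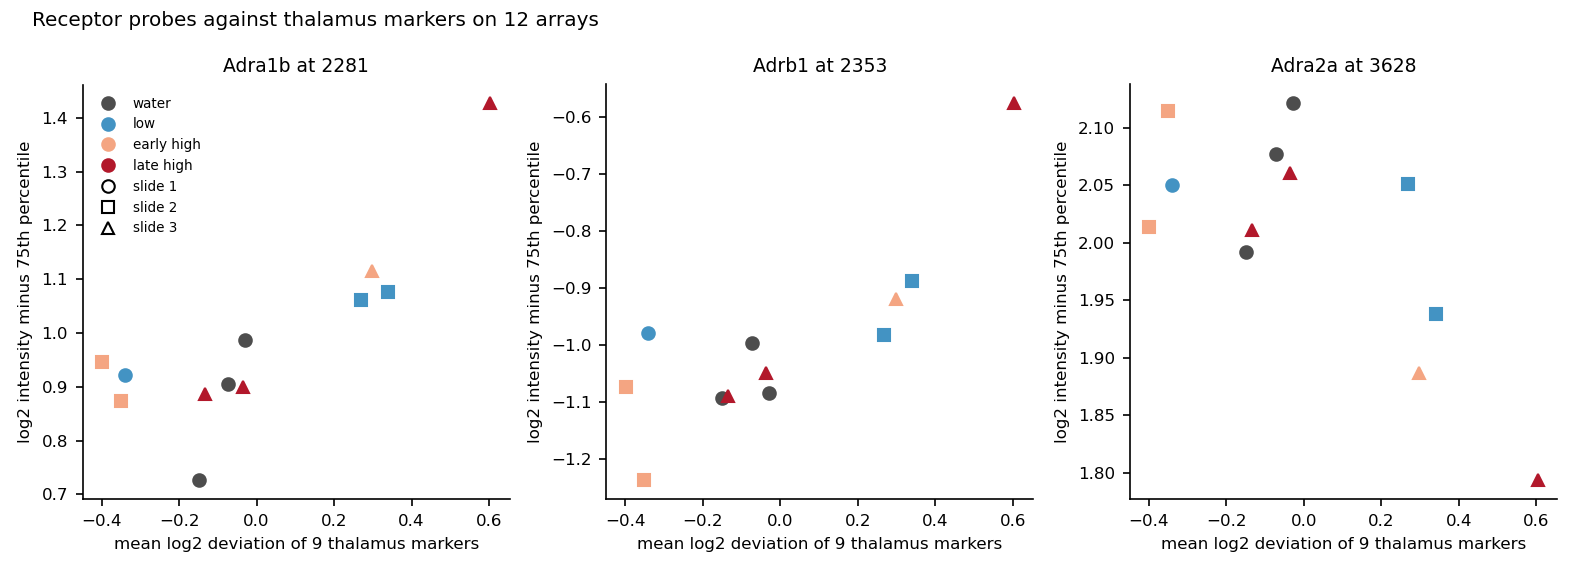
Level of Adra1b at base 2281, Adrb1 at base 2353 and Adra2a at base 3628 (log2 intensity minus the array's 75th percentile, vertical axes) against the mean log2 deviation of 9 thalamus markers from their means (horizontal axes) on 12 arrays, with colors for drinking groups and marker shapes for slides. The first 2 rise along the axis (r = 0.819 and 0.820) and Adra2a falls (r = -0.723), with late high array 3 at the far right.

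Among dim probes, Adra1a at base 3983 followed the lower quartile of the array's signal, with an r of 0.933 (permutation p = 3e-05, adjusted p = 0.00432) and a rho of 0.895 (permutation p = 0.00018, adjusted p = 0.0259), and an r of 0.871 without low drinker arrays 2 and 3. Its level thus moved with the dim spots of the array as a whole. Of the 144 relations 8 had an adjusted p under 0.05 by Pearson's r, and this was the only one that also had it by ranks. Adra1d and Adrb1 at base 380 were related to the blood markers, with r values of 0.822 and 0.809 (adjusted permutation p = 0.0274 and 0.0356) and rho values of 0.601 and 0.622 (adjusted permutation p = 0.433 for both). Without late high arrays 2 and 3 the r values were 0.578 and 0.508, and after slide means were subtracted over all 12 arrays they were 0.735 and 0.688. These relations kept their direction in both and were weaker without those 2 arrays. Striatum markers were related to Adra2b (r = 0.819, adjusted permutation p = 0.0253, rho = 0.811) and to Adra1a at base 2261 (r = 0.797, adjusted permutation p = 0.0468, rho = 0.755). After slide means were subtracted these r values were 0.605 and -0.032, so the Adra1a relation did not hold within slides. Adra1a at base 3983 also had an r of 0.846 with the fat tissue markers (adjusted permutation p = 0.0253, rho = 0.762), of 0.506 without low drinker arrays 2 and 3, and of 0.819 after slide means were subtracted. Of these 5 markers only 1 was well above background on all arrays. Their mean deviation was highest on low drinker arrays 2 (1.17) and 3 (0.35), which also had the brightest dim spots. The part of the dim spots in this relation was not tested.

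For the synthesis, transport and breakdown of noradrenaline, 11 probes of 9 genes were tested. Since noradrenaline comes along fibers of brainstem neurons, these transcripts do not measure its supply to the tissue. Of these, 0 passed the adjusted p by limma in each of the 6 comparisons, and for alcohol against water 1 of 11 passed the unadjusted p, beside 5.59% of all probes. At that threshold 3 of 11 were higher in low drinkers than in water (8.33% of all probes higher), from 2 of the 9 genes, with a median log2 difference of 0.32, and 3 of 11, also from 2 genes, were lower in late than in early high drinkers (8.04% of all probes lower), with a median of -0.34. In early high drinkers 2 were higher than in water (2.8% of all probes higher), in late high drinkers 1 was lower than in water (8.94% of all probes lower), and in high drinkers 2 were lower than in low drinkers (11.3% of all probes lower). Low drinker array 2, the array with the summed level of -2.50 of noradrenergic cell body markers, is 1 of the 3 low drinker arrays, and its part in the low drinker counts was not tested. The 1 that passed for alcohol against water was Th, tyrosine hydroxylase, the first enzyme of catecholamine synthesis, which is also made by dopamine neurons of the hypothalamus, with a log2 difference of 0.51 (standard error 0.20, unadjusted p = 0.0250, adjusted p = 0.813 by limma). Dbh, which turns dopamine into noradrenaline, was well above background on 6 arrays and had a log2 difference of -0.31 (standard error 0.42, adjusted p = 0.888 by limma). That difference rests on water array 1, at -4.88, while water arrays 2 and 3 were at -6.06 and -5.78. Slc6a2 was not tested.

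Downstream of the receptors, 22 tested probes of 9 G protein genes had 0 at the unadjusted p for alcohol against water. For late high drinkers against water, 3 of the 22 were higher and 5 lower at the unadjusted p, beside 6.97% of all probes higher and 8.94% lower, with a smallest adjusted p of 0.118 by limma. These 8 probes belong to 3 of the 9 genes, Gnas, Gnai1 and Gnai2, named after their values were seen, and the probes of Gnai1 differed in direction. Between late and early high drinkers 5 of the 22, from 5 genes, were lower (8.04% of all probes lower) and none was higher. In high drinkers 2 were higher and 4 lower than in low drinkers, from 3 genes (3.4% of all probes higher and 11.3% lower), with a smallest adjusted p of 0.0808 by limma. Among 36 probes of 18 effector genes, 3 were higher at the unadjusted p for alcohol against water and none was lower, beside 3.92% of all probes higher and 1.66% lower. The 3 probes were Adcy3, an adenylyl cyclase (log2 difference 0.15, standard error 0.06), and the phospholipases Plcb4 (0.26, standard error 0.12) and Plcb2 (1.23, standard error 0.56), each with an adjusted p of 0.813 by limma. The other probe of Adcy3 had a log2 difference of 0.02, and the other of Plcb2 of 0.23. Of 16 probes of receptor kinases and arrestins, 1 was lower, beside the same 1.66% of all probes. It was Arrb1, which uncouples receptors from G proteins (log2 difference -0.17, standard error 0.06, adjusted p = 0.813 by limma), while its other probe was at 0.06. No pathway probe passed the adjusted p in any of the 6 comparisons.

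The probes whose pattern was most like that of a receptor were sought among 18757 named probes well above background on all arrays, by Pearson's r over the 12 arrays after slide means were subtracted. For Adra1d they were Mchr1, the receptor for melanin-concentrating hormone (r = 0.945), Egln2 (0.937) and Gnl1 (0.928). For Adrb1 they were Jakmip1 (0.927), Kank2 (0.923) and Git1 (0.915) at base 380, and Rpl18 (0.949), Creg1 (0.940) and Gdf1 (0.936) at base 2353. The 2 Adrb1 probes thus shared none of their nearest 3. For Adra1b they were Ercc8 (0.975), Srprb (0.961) and Fgfr3 (0.961) at base 894, and Agpat5 (0.956), Suz12 (0.955) and Fgf12 (0.948) at base 2281.

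The probes nearest to Adra1a at base 2261 were 2610507B11Rik (r = 0.964), Neurog3 (0.931) and Olfr521 (0.928). For Adra2a they were Cpsf6 (0.962), Sdsl (0.947) and Pnkd (0.931) at base 2303, C2cd2l (0.949), Rab3d (0.940) and Ptpro (0.936) at base 3628, and Psmg4 (0.966), Mboat7 (0.954) and Sox18 (0.952) at base 3688. Adra2c was nearest to Tusc1 (0.935), Cpsf6 (0.915) and Castor2 (0.902), so Cpsf6 was common to Adra2c and Adra2a at base 2303. These are the highest of all r values computed over 12 arrays and describe these arrays.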

How the data were processed

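The authors deposited the scanner output of 12 arrays, with a background-corrected signal intensity per spot on a linear scale made with Feature Extraction, which the headers give as 10.5.1.1, and unscaled between arrays, and a table of the same intensity values per probe. Here log2 intensities were reduced by each array's 75th percentile. Outlier spots and spots with a signal to error ratio under 2 were set to missing, and probes with values on over 50% of the arrays of each of 4 groups were tested with limma 3.58.1 (R 4.3.3; lmFit, eBayes, Benjamini-Hochberg). The fit for alcohol against water had 2 groups and the others shared 4 group means. Single values had exact permutation tests. Members, gene lists and the marker relations were chosen with earlier results of these data known. Positions are those of mm9 in the files, and names were checked against a GRCm38.p6 gene table. Every receptor probe is described, with at most 3 genes per pathway list and the 3 nearest patterns per receptor. The steps were tested on simulated data. Alternatives covered background, scaling, filters, the authors' table, slide and replicate blocks, the methods' t-test and each array left out. The number of arrays limits the precision. Figures used matplotlib 3.10.9.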

Additional observations from a re-analysis of the deposited data

Results flagged for a closer look

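Late high drinker array 3 was set apart by Adra1b at base 2281. Its level there was 1.43, the next highest alcohol array was at 1.12, and the gap between them was 0.563 of the range of the 9 alcohol arrays, past Dixon's critical value for 9 values. Such a gap arises by chance in about 1 of 20 groups, and 12 receptor probes were looked at, of which 1 passed the limit. The same array had the highest Adrb1 level at base 2353 and the highest summed thalamus marker level, and their part in the Adra1b value was not tested.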

How the results depend on the processing

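No receptor probe passed the adjusted p in the 6 comparisons under any alternative run, and with single arrays left out each count stayed at 0. The count at an unadjusted p under 0.05 for alcohol against water, 0, became 1 with quantile normalization and stayed at 0 with single arrays left out. The replicate numbers did not pair the samples (r of same-numbered arrays -0.0893 to 0.183), and with the replicate number as a block 0 receptor probes passed the adjusted p for alcohol against water, with a smallest adjusted p of 0.834 by limma.

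Directions for alcohol against water turned for 6 of 12 probes, among them both Adra1a probes, which had the largest differences of the 12 (0.26 at base 3983 and -0.23 at base 2261). With quantile normalization they were -0.0107 for Adra2a at base 2303, -0.1042 for Adra2b and -0.0008 for Adra1a at base 3983. With the slide as a fixed block they were -0.01 for Adra2a at base 2303, 0.0596 at base 3688 and -0.1867 for Adra1a at base 3983, and Adra2b was at 0.849 instead of 0.12. Since water was on slide 1 alone, these blocked values compare 1 low drinker array with the 3 water arrays, and the other 8 alcohol arrays add nothing to them. Without water array 1, Adra2a at base 2303 was at -0.0413 and Adra2b at -0.2336. Without water array 2, Adra1a at base 2261 was at 0.0466. Without low drinker array 2, Adra1b at base 894 was at -0.0083 and Adra2b at -0.0049. Without early high drinker array 1, Adra2a at base 2303 was at -0.0036 and Adra2b at -0.1847, and without early high drinker array 2, Adra2a at base 2303 was at -0.0002. With single arrays left out, Adra2a at base 2303 ran from -0.0413 to 0.1, Adra2b from -0.2336 to 0.5081, Adra1a at base 2261 from -0.3743 to 0.0466 and Adra1b at base 894 from -0.0083 to 0.2428. The causes were not tested.

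The alternatives for the other 5 comparisons, chosen after seeing the data, moved Adrb1 at base 380 in late high drinkers against water between -1.19 and -0.40 (adjusted p 0.0883 to 0.519 by limma or the methods' t-test), and with single arrays left out between -0.73 and -0.52. Adra1d moved between -0.61 and -0.35, and between -0.76 and -0.50 with single arrays left out. Adra1b at base 894 in high against low drinkers moved between -1.15 and -0.45. The filter to probes well above background on all arrays dropped Adra2b and Adra1a at base 3983.

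Over all probes, the 69 adjusted calls in low drinkers against water became 6 with quantile normalization, 7 with the replicate block, 30 with the slide as a random block, 1 with only probes well above background on all arrays and 0 with the slide as a fixed block, no filter, the other signal to noise ratio or the methods' t-tests. The 7 in high against low drinkers became 161 with normexp, 52 with the slide as a fixed block, 11 without scaling or with the authors' table, 3 with scaling to the median or the slide as a random block, 1 with quantile normalization, and 0 with the replicate block, no filter, the other signal to noise ratio, only probes well above background on all arrays or the methods' t-tests. The 0 in late high drinkers against water became 63 with only probes well above background on all arrays. Single arrays moved these counts further. Without low drinker array 1 the 69 became 2321 and the 7 became 2107, and with other single arrays left out the 69 became 0 to 18. Without late high array 3, late high drinkers against water had 451 calls instead of 0, high against low drinkers 110 and late against early high drinkers 110, and without early high array 3 the last had 203. At the unadjusted p, 9.08% of probes in low drinkers against water became 3.68% to 19.9% without single arrays and 2.37% to 13.8% with alternatives. In alcohol against water 5.59% became 3.72% to 9.33% and 1.6% to 11.4% in turn. Without scaling, the lower share of unadjusted calls was 15.9% instead of 56.2% in late high drinkers against water, 29.8% instead of 76.9% in high against low drinkers (41.3% with quantile normalization), 15.8% instead of 64.8% in late against early high drinkers (54.2%), and 19.0% instead of 29.8% in alcohol against water (48.4%). In low drinkers against water it was 51.0% with quantile normalization instead of 8.26%. Dim probes and 3 arrays a group limit the precision.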
